A study of Zea mays with 2 samples.

Results

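Clusters of closely spaced MNase hypersensitive sites were described in leaf chromatin of maize (Zea mays). A cluster was a chain of 3 or more called peaks in which each summit lay no more than 1000 bp from the next one on the same chromosome. In the list made from both replicates 1564 such chains were found, and they held 4914 of the 66801 peaks (7.36%). The count depends on which peaks are joined or kept, since 781 chains (2410 peaks) were left after joining peaks within 100 bp and 572 (1764 peaks) among merged peaks with a counterpart in both replicates. Members were chosen by the summit positions of the merged list alone and not by strength, width or recurrence. A further 17078 peaks stood in pairs, and 44809 had no other summit within 1000 bp.

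The material was leaf of 10-day-old plants of the inbred line B73, which was fixed with formaldehyde before its nuclei were digested. Both libraries are labelled with 100 U of MNase; the protocol also describes a heavy digestion of 900 U, which neither label names. Per the labels, tissue came from 10 plants, and DNA fragments of 40 to 100 bp were recovered. The 2 libraries, replicates 1 and 2, form a single group with no untreated, naked-DNA or second-tissue counterpart, and the labels do not say whether they are separate collections. The source field names seedlings and the tissue field leaf, and the protocol also mentions whole seedlings.

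Micrococcal nuclease (MNase) cuts DNA that is not wrapped around histones, so a light digestion releases short fragments first from the most exposed stretches of chromatin. In plants such stretches are known at promoters and at distal regulatory elements, where bound proteins displace nucleosomes. Several neighbouring sites can belong to 1 regulatory region, with nucleosomes or bound proteins between them. Genes of maize are concentrated towards the chromosome ends, and the middle parts are rich in retrotransposons.

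The authors gave 1 peak list for each replicate and a merged one for both. The replicate 1 list has 74443 peaks, the replicate 2 list 60518. Each peak carries the authors' fold enrichment over background, which was at least 5 in every peak of the 3 lists. Read totals are not in the lists, so depth is unknown. Since summit positions in the merged list chose the members, and that list was made from the same 2 libraries, all values below are descriptions without a test. Positions are 1-based on B73 RefGen_v4. No genome or annotation of that build was used here, so sequences and genes at the chains were not analysed.

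Most chains were of the smallest size the rule admits. Of the 1564 merged chains 1367 held 3 peaks, 175 held 4, 19 held 5 and 3 held 6. The same rule gave 1803 chains with 5670 peaks in the replicate 1 list and 1320 chains with 4176 peaks in the replicate 2 list, a mean of 1562 ± 342 chains (SD, n = 2). Members made up 7.62% of the peaks of replicate 1 and 6.90% of those of replicate 2, so the lists differed less in this share than in the number of chains. Only in replicate 2 was a chain of 7 peaks found, 1 in all, while the largest chains of replicate 1 and of the merged list held 6.

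With links of up to 1000 bp, chains were about as much peak as gap. Span and covered share both depend on the linking distance. The median covered share was 69.2% with links of up to 500 bp and 39.5% with 2000 bp. The median span, from the start of the first peak to the end of the last, was 1190 bp (quartiles 942 and 1464 bp), and spans ran from 353 to 3041 bp. Replicate 1 chains had a median of 1199 bp and replicate 2 chains one of 1152 bp, so the replicates averaged 1175 ± 33.6 bp (SD, n = 2). Peaks covered a median of 53.3% of the span (quartiles 41.4 and 66.8%, range 17.1 to 96.0%), against 47.8% in replicate 1 and 47.7% in replicate 2. All merged chains together spanned 1898 kb, of which 982 kb were peak. That peak sequence was 5.98% of all bases under merged peaks, a smaller share than the 7.36% of peaks; members were narrower than other peaks. The covered share was lower in larger chains. Its median was 53.8% for chains of 3, 50.2% for chains of 4 and 46.1% for the 22 chains of 5 or more, whose median spans were 1165, 1479 and 1699 bp.

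Members were weaker and narrower than peaks outside chains. Their median fold enrichment was 6.70 (quartiles 5.67 and 8.63), against 7.57 (5.97 and 10.1) in all other merged peaks, a difference in medians of -0.87. Built from replicate 1 the difference was -0.87, and from replicate 2 it was -0.83. In the merged list it was below 0 on each of the 10 chromosomes, from -1.04 on chromosome 4 to -0.67 on chromosome 9. The ranges between quartiles overlapped widely. Neighbouring peaks can enter each other's local background, so the fold enrichment of members is not independent of the rule. How far this contributes to the difference was not tested. Median width was 175 bp for members and 224 bp for the others, and median −log10 q was 29.3 and 40.1. Of the members 35.2% (Wilson 95% interval 33.9 to 36.6%) were narrow, that is under 130 bp, compared with 21.8% (21.4 to 22.1%) of the others. Such intervals reflect counting error alone, and peaks of 1 library are not independent.

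**Figure D1:**
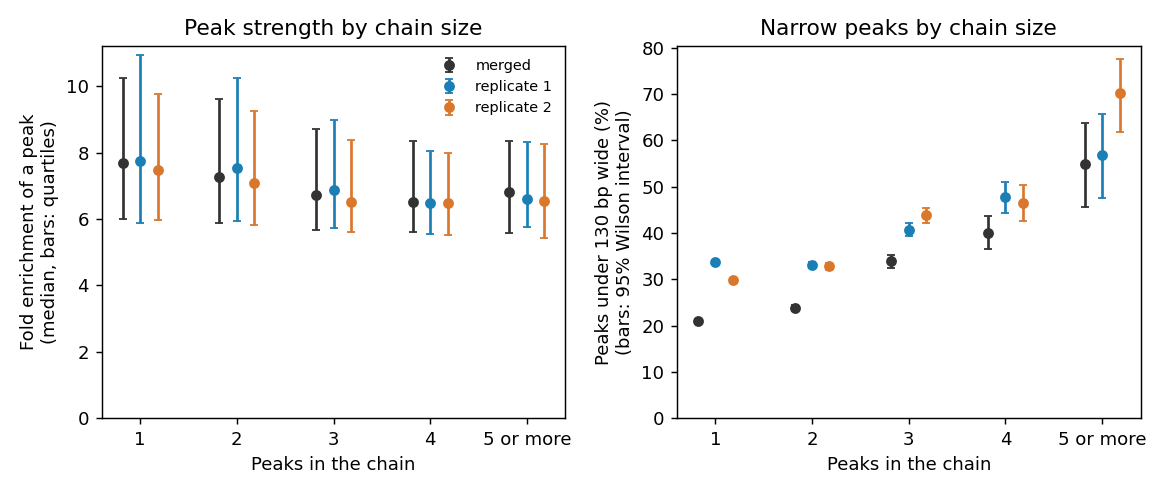
Fold enrichment of peaks (left, median with quartiles) and share of peaks under 130 bp (right, with 95% Wilson intervals) against the number of peaks in the chain, for the merged list and each replicate list. From chains of 3 to chains of 5 or more the share of narrow peaks is higher with size in all 3 lists, from 33.9% in merged chains of 3 to 54.9% in merged chains of 5 or more, while the fold enrichment quartiles of all sizes overlap.

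In the merged list, strength was lower with each chain size up to 4, while the share of narrow peaks was higher at every step. Median fold enrichment in the merged list was 7.68 for single peaks, 7.28 in pairs, 6.72 in chains of 3, 6.52 in chains of 4 and 6.83 in chains of 5 or more. The last step back up rests on 113 peaks. The share of narrow peaks was 21.0% for single peaks, 23.8% in pairs, 33.9%, 40.0% and 54.9%, in the same order. Among narrow peaks alone, members had a slightly higher median fold enrichment than other peaks (5.95 against 5.81), whereas among wider peaks they had a lower one (7.27 against 8.26). The same held in replicate 1 (6.01 against 5.80, and 7.65 against 9.16). In replicate 2 members were lower in both width classes (5.86 against 6.02, and 7.29 against 8.21). A strong site could still belong to a chain, since 627 members (12.8%) ranked in the top 20% of merged peaks by fold enrichment and 524 chains (33.5%) held at least 1 such peak. At the other end, 379 chains (24.2%) held no peak above the median of the whole list.

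Members of a chain differed moderately in strength. In merged chains of 3, ranked by strength, the median fold enrichment was 9.14 for the strongest peak, 6.73 for the second and 5.57 for the weakest, so the weakest lay close to the lowest value listed. The strongest peak exceeded the weakest by a median of 1.57-fold, and by at least 2-fold in 350 of 1367 chains (25.6%). The order of these medians is set by the ranking, and the ratio was 1.31 in pairs, where fewer peaks are ranked. For chains of 3 it was 1.61 in replicate 1 and 1.52 in replicate 2. No place in the chain led in all 3 lists. It was the first in 36.3% (33.8 to 38.9%), the middle in 31.5% (29.0 to 34.0%) and the last in 32.3% (29.8 to 34.8%) of merged chains of 3, and in replicate 2 the middle peak led with 33.9% (31.2 to 36.7%). The middle peak was the weakest in 37.4% (35.0 to 39.8%) of chains in replicate 1 but in 32.9% (30.2 to 35.7%) in replicate 2. Fold enrichment of adjacent members was nearly unrelated, as a description across links. Spearman's rho across 3350 links was 0.02 for merged chains, compared with 0.07 across the 8539 pairs. Both peaks of a link share libraries and local background. Width was weakly related (rho = 0.13 in chains and 0.20 in pairs).

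Neighbouring summits in chains were closer than the rule requires. The median distance was 437 bp (quartiles 260 and 658 bp) over 3350 links, against 561 bp (347 and 782 bp) in pairs. The replicate chains had medians of 444 and 424 bp. Because links were selected on this distance, these values are a description. By 50 bp class, links were most frequent at 150 to 199 bp in each list, with 290 links (8.66%) of merged chains, 346 (8.95%) of replicate 1 chains and 260 (9.10%) of replicate 2 chains. Counts then declined, with small reversals, to 98 links at 950 to 999 bp in the merged list. Merged pairs lacked this decline. They had 477 links at 150 to 199 bp and 581 at 750 to 799 bp, the most frequent class.

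**Figure D2:**
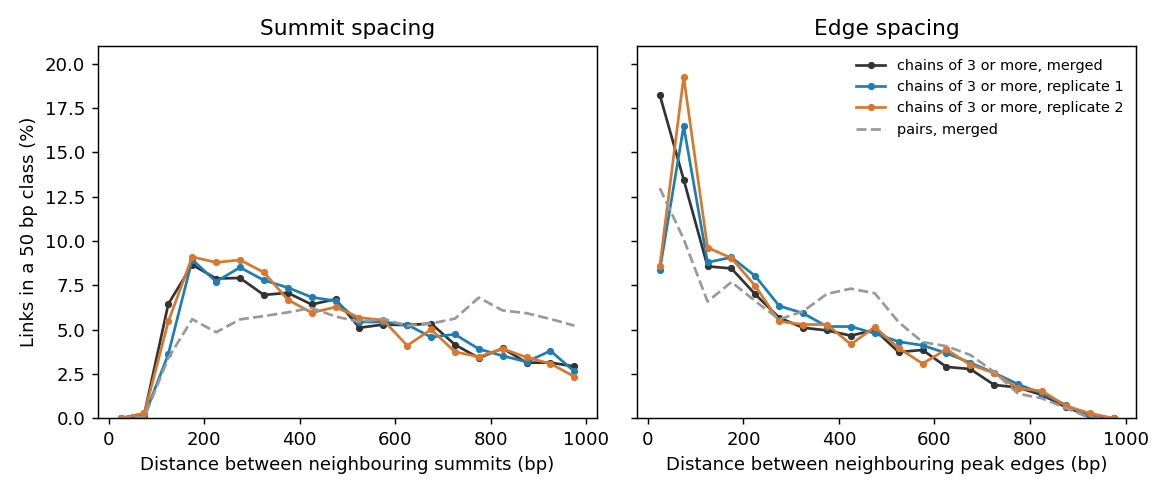
Share of links in 50 bp classes by the distance between neighbouring summits (left) and between neighbouring peak edges (right), for chains of 3 or more in the merged, replicate 1 and replicate 2 lists and for merged pairs. Summit distances in chains are most frequent at 150 to 199 bp in each list and decline, while pairs have their most frequent class at 750 to 799 bp and, between edges, a local maximum at 400 to 449 bp below those at 0 to 49 and 150 to 199 bp.

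Measured between edges rather than summits, the unmarked stretch between 2 members had a median of 206 bp in merged chains, against 244 bp for replicate 1 and 221 bp for replicate 2. Of the merged links 31.7% left less than 100 bp, as did 24.8 and 27.8% of the links in the replicates. Beyond that, edge distances in chains declined steadily from 287 links at 100 to 149 bp and 283 at 150 to 199 bp to 156 at 400 to 449 bp. Counts in merged pairs instead went up from 476 links at 250 to 299 bp to 624 at 400 to 449 bp. The closest edges were 19 bp apart among merged peaks, but 38 bp apart for replicate 1 and 37 bp for replicate 2. Over all peaks, distances under 38 bp occurred 1185 times in the merged list, 67 times for replicate 2 and never for replicate 1, so the lists differ in how close neighbouring peaks can stand. An edge distance of this kind was present in 396 merged chains (25.3%). Spacing inside a chain was mostly uneven. In merged chains of 3 the shorter link had a median of 294 bp and the longer one 635 bp, and they differed by no more than 1.25-fold in 300 chains (21.9%, 19.8 to 24.2%). The replicates gave 21.2 and 21.1%.

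The 10 chains described here are the 3 of 6 peaks and, of the 19 with 5 peaks, the 7 with the longest span. The largest lay near the end of chromosome 8 at 177443303 to 177445147, with 6 peaks over 1845 bp of which 37.8% was covered. From left to right its peaks had fold enrichments of 5.24, 11.9, 21.6, 8.95, 6.49 and 14.5 in the merged list. Replicate 1 listed the last 5 of them at 9.96, 21.4, 11.0, 8.95 and 13.7, and replicate 2 at 12.8, 22.6, 8.22, 5.06 and 14.0. Neither replicate listed the leftmost. A second chain of 3 peaks began at 177441354 and ended 930 bp before it, the shortest distance between any 2 merged chains, so 9 peaks lay within 3794 bp. Each replicate held both chains.

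The other chains of 6 peaks were on chromosomes 2 and 9. The one on chromosome 9 at 57398098 to 57399606 (1509 bp, 46.1% covered) had fold enrichments of 6.42, 11.8, 5.80, 7.95, 18.8 and 7.98. Each replicate listed 5 of these peaks, replicate 1 without the first and replicate 2 without the third. The chain on chromosome 2 at 220545508 to 220547109 (1602 bp, 60.4% covered) was of another kind. Its merged fold enrichments were 5.99, 5.01, 7.26, 12.1, 7.40 and 5.59, and replicate 1 listed 4 peaks there at 5.90, 11.9, 7.31 and 5.51, the second of which spanned 2 of the merged ones. Replicate 2 listed no peak in the whole chain. The same was true of a chain of 5 weak peaks on chromosome 1 at 184161349 to 184163488, with merged fold enrichments from 5.12 to 6.44 and 4 peaks in replicate 1.

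**Figure D3:**
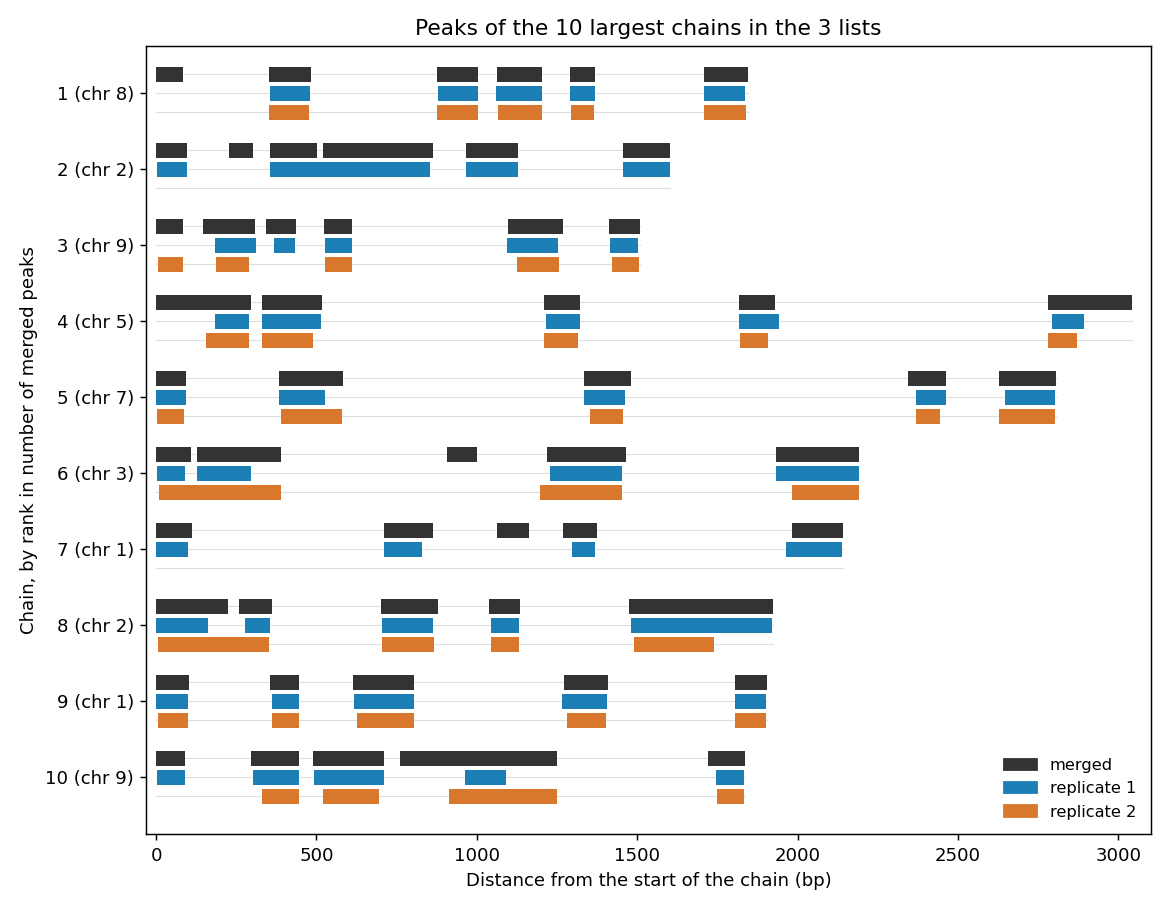
Peaks of the 10 merged chains with the most peaks, ties ranked by span, drawn to scale from the start of each chain, with the merged list (dark), replicate 1 (blue) and replicate 2 (orange) on separate lines. Replicate 2 has no peak in the chains ranked 2 and 7, and in the chain ranked 6 a replicate 2 peak spans 2 merged peaks.

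The remaining 6 of these chains held 5 peaks each and were found at least in part in both replicates. The longest of all merged chains, on chromosome 5 at 2581037 to 2584077 (3041 bp, 31.8% covered), had 5 peaks in each replicate, with merged fold enrichments of 9.13, 6.62, 8.71, 7.72 and 6.64. Close to the start of chromosome 1, at 22316 to 24219, a chain of 5 strong peaks (10.8, 12.4, 10.7, 17.5 and 11.0) recurred in full, at 8.68, 12.1, 10.7, 16.5 and 9.34 in replicate 1 and 11.3, 12.4, 8.83, 18.5 and 11.9 in replicate 2. On chromosome 7 at 82367504 to 82370307 all 5 peaks had counterparts in both replicates, but in replicate 1 a link grew past 1000 bp and the largest chain held 3. On chromosome 2 at 187483469 to 187485391 replicate 2 listed the 2 leftmost peaks as 1 and held a chain of 4. On chromosome 9 at 47745401 to 47747235 replicate 2 lacked the leftmost peak. On chromosome 3 at 198022577 to 198024768 the third peak (fold enrichment 5.21) was missing from both replicates, which left no more than a pair in either. In all, 7 of the 10 had a chain of 3 or more in both replicates. For 2 of them the chain in each replicate held at least as many peaks as the merged chain.

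The chains with the highest median fold enrichment each recurred peak by peak. The first lay on chromosome 7 at 46267171 to 46268609 and descended in steps, with merged fold enrichments of 87.1, 21.9 and 5.57, replicate 1 values of 85.7, 20.5 and 5.60, and replicate 2 values of 83.7, 23.5 and 5.74. All 3 summits were at the same base in the 3 lists. The next, on chromosome 5 at 10741416 to 10742407, had a weak peak between 2 strong ones (21.5, 6.44 and 19.7), and so had the replicates (22.4, 6.98 and 20.5, and 19.1, 5.43 and 17.3). On chromosome 2 at 176915714 to 176916737 the middle peak was likewise the lowest, with merged values of 30.3, 10.5 and 19.6. None of these was weak, since the upper quartile of all merged peaks was 9.98. Replicate 1 values were 30.5, 10.4 and 18.6, and replicate 2 values were 29.7, 10.2 and 19.7. These chains were ranked on the merged list, so their values in the replicates are not independent evidence.

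The chains with the highest covered share were, in the merged list, near-continuous peaks broken by short gaps. On chromosome 4 at 234567506 to 234568768 merged peaks covered 96.0% of 1263 bp, with gaps of 25 and 26 bp around a peak of 735 bp. Both replicates listed 3 peaks there, but with wider gaps, and the middle peak measured 380 bp in replicate 1 and 439 bp in replicate 2. On chromosome 1 at 29315666 to 29316865 (94.9% covered) the gaps were 28 and 33 bp, and replicate 2 listed the 2 left peaks as 1 peak of 645 bp. On chromosome 3 at 158097706 to 158098824 (94.5% covered, gaps of 41 and 21 bp) replicate 1 listed the 2 right peaks as 1 of 917 bp, and each replicate held 2 peaks. Replicate 2 had no counterpart of the rightmost peak there.

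Chains were most frequent towards the chromosome ends, as were single peaks and pairs. In the outer 20% at each end lay 844 of 1564 chains (54.0%, 51.5 to 56.4%) and in the middle 20% lay 184 (11.8%, 10.3 to 13.5%). For single peaks these shares were close, at 53.1% and 13.3%, and for pairs they were 48.2% and 16.1%. Per Mb there were 1.02 ± 0.19 chains at the ends and 0.44 ± 0.13 in the middle (mean ± SD over 10 chromosomes). The ends were higher on 10 of 10, which also held for single peaks and for pairs. The ratio of the means was 2.31, compared with 1.94 for single peaks and 1.46 for pairs. It was 2.20 for chains of replicate 1 and 2.36 for those of replicate 2. Chromosomes differed in degree. On chromosome 5 there were 1.03 chains per Mb at the ends and 0.25 in the middle, while on chromosome 6 there were 0.86 and 0.57. Over whole chromosomes the density ran from 0.66 chains per Mb on chromosome 3 to 0.89 on chromosome 9, and the share of peaks that were members from 6.67% on chromosome 6 to 8.52% on chromosome 9. The 197 chains of 4 or more showed a ratio of 3.02, from 0.14 ± 0.05 and 0.05 ± 0.04 chains per Mb. Only 21 of them lay in the middle. Their share at the ends was 58.9% (51.9 to 65.5%), an interval that overlaps the one for all chains.

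**Figure D4:**
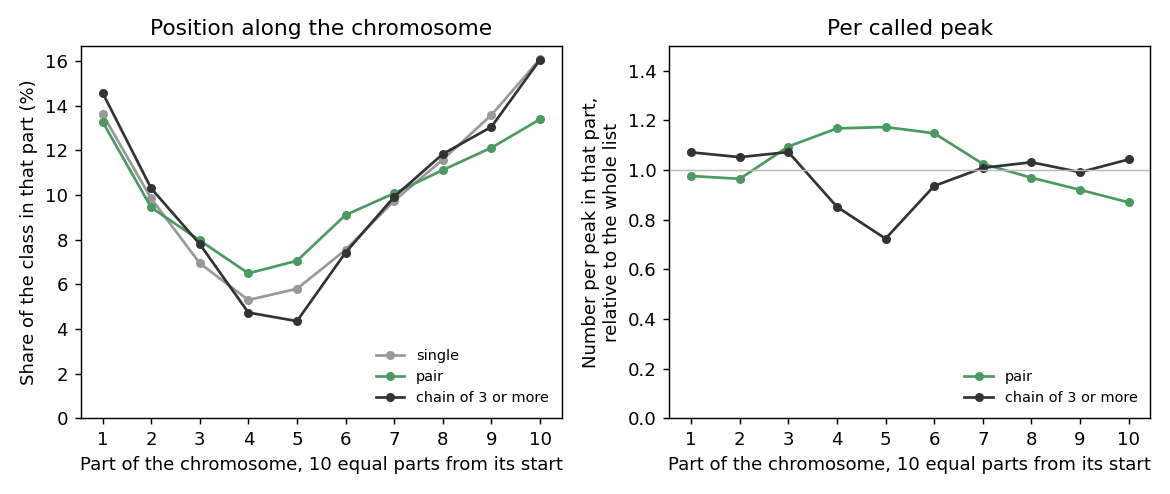
Share of single peaks, pairs and chains of 3 or more in each of 10 equal parts of the chromosome length, over the 10 chromosomes (left), and the number of pairs and chains per called peak in each part relative to the whole merged list (right, line at 1). Chains per peak are lowest in part 5 (0.72) where pairs per peak are highest (1.17).

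Peaks of every kind were denser at the ends, and set against the peaks called there, chains varied less. With each chromosome divided into 10 equal parts from its start, chains ran from 16.9 per 1000 peaks in part 5 to 25.1 in part 3. They were low in parts 4 (19.9), 5 and 6 (21.9), and between 23.2 and 25.1 in the other 7. Pairs ran from 111 per 1000 peaks in part 10 to 150 in part 5, and were above the whole list in parts 3 to 7, in 3 of which chains were below it. Chains were also more frequent per peak where peaks were crowded. The rule itself favours this, since it needs close summits and each chain adds at least 3 peaks to its window. In 1 Mb windows, chains per 1000 peaks were 5.09 in the 95 windows with up to 9 peaks, 15.2 in the 361 windows with 10 to 19 peaks, 17.9 in those with 20 to 29, 25.4 in those with 30 to 39, 25.3 with 40 to 49, 25.5 with 50 to 59 and 30.4 in the 95 windows with 60 or more.

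Few chains had another chain nearby, and the median distance from 1 chain to the next was 793 kb. The counts below were not set against an even placement of as many chains. They therefore do not show that chains kept apart. Of 2101 windows 1088 held no chain, 633 held 1, 258 held 2, 89 held 3, 26 held 4, 6 held 5 and 1 held 6. That last window was on chromosome 4 at 190000001 to 191000000, with 6 chains among 56 peaks, 5 in replicate 1 and 2 in replicate 2. A window on chromosome 2 at 234000001 to 235000000 had 5 chains among only 28 peaks, and 3 in each replicate. Only 52 chains (3.32%) had another chain within 10 kb, and these formed 26 groups of 2. Within 50 kb 216 chains (13.8%) had another. Outside the chain, the nearest further summit was a median of 11494 bp away, against 9806 bp for pairs and 6679 bp for single peaks, for each of which it lies over 1000 bp away by construction. More than 50 kb of empty sequence on both sides surrounded 102 chains (6.52%), compared with 8.74% of pairs and 7.09% of single peaks.

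A minority of the chains recurred as chains in both libraries. A chain of 3 or more built by the same rule overlapped the merged chain in both replicate lists for 544 of 1564 (34.8%, 32.5 to 37.2%). It did so in replicate 1 alone for 489 (31.3%), in replicate 2 alone for 227 (14.5%) and in neither for 304 (19.4%). The share in both was 18.4% when every member needed a summit within 50 bp in each replicate, and 19.1% for chains linked at 500 bp. Larger chains recurred more often, 31.6% (29.2 to 34.1%) of chains of 3, 56.6% (49.2 to 63.7%) of chains of 4 and 59.1% (38.7 to 76.7%) of the 22 chains of 5 or more. A larger chain can lose a peak and still count, however. A chain of at least as many peaks was present in both replicates for 15.4% (10.8 to 21.5%) of chains of 4 and for 3 of the 22. For merged pairs, a chain of 2 or more was present in both for 55.9% (54.8 to 56.9%). By chromosome the share for chains ran from 27.4% on chromosome 6 to 40.5% on chromosome 5, and it was 34.8% (31.7 to 38.1%) at the chromosome ends and 37.5% (30.8 to 44.7%) in the middle.

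**Figure D5:**
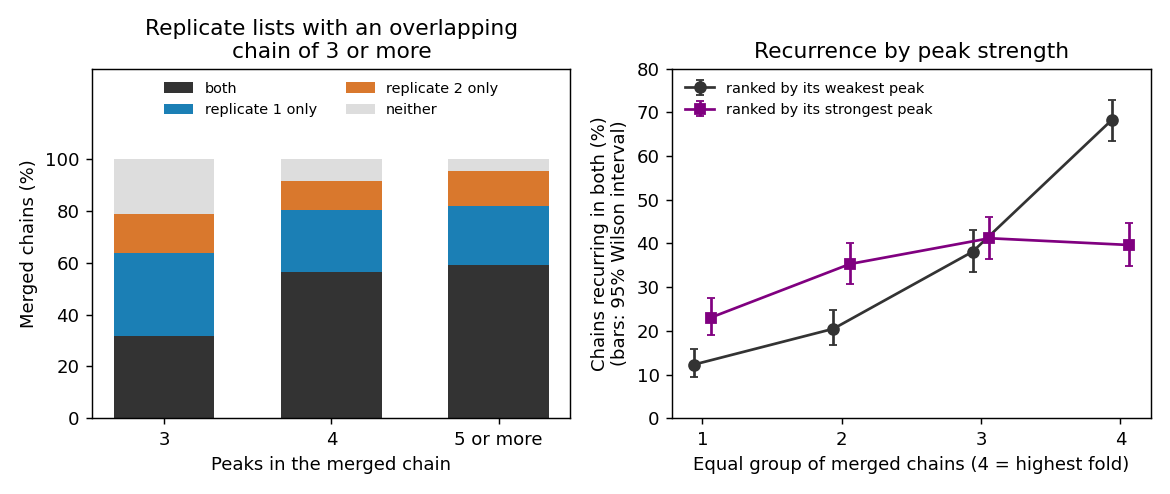
Share of merged chains with an overlapping chain of 3 or more in both replicate lists, in 1 of them or in neither, by chain size (left), and share recurring in both for 4 equal groups of chains ranked by the fold enrichment of their weakest or strongest peak (right, 95% Wilson intervals). Ranked by the weakest peak the share goes from 12.3% to 68.3%, while ranked by the strongest peak it stays between 23.0% and 41.2%.

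Chains failed to recur mainly by losing 1 or more peaks, and few lost all of them. Each replicate had a counterpart of at least 1 member, not necessarily the same one, in 1532 chains (98.0%, 97.1 to 98.5%). With 3 or more members per chain this is a low bar. Where replicate 1 held no chain of 3 or more (531 chains), a member had no counterpart there in 400, and in 122 all members were overlapped but by fewer, broader peaks. Only in 9 did every member have its own peak with summits too far apart. For replicate 2 (793 chains) these numbers were 718, 65 and 10. In replicates 1 and 2 the largest overlapping chain was a pair in 403 and 531 cases and a single peak in 120 and 236. In 8 and 26 cases there was no peak. Recurrence was far higher where the weakest member was stronger. With the chains ranked by their weakest peak and divided into 4 equal groups, it was 12.3% (9.39 to 15.9%) where that peak had a fold enrichment of 5.00 to 5.22, 20.5% and 38.1% in the middle groups, and 68.3% (63.5 to 72.7%) where it was 6.07 or more. Ranked by the strongest peak, the groups gave 23.0%, 35.3%, 41.2% and 39.6%. Chains with edges under 38 bp apart recurred in 25.0% (21.0 to 29.5%) and the others in 38.1% (35.4 to 40.9%), although every member was overlapped in both replicates at nearly the same rate (32.1% and 33.0%).

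Taken peak by peak, members were found in both replicates less often than other peaks in the merged list as a whole, at 68.5% (67.2 to 69.8%) against 75.3% (74.7 to 76.0%) in pairs and 77.8% (77.4 to 78.2%) for single peaks. Within quintiles of fold enrichment the classes were close. From the weakest to the strongest quintile, 21.6%, 65.9%, 90.4%, 98.3% and 98.4% of members were found in both, and 23.7%, 69.0%, 93.4%, 98.2% and 99.0% of single peaks. Of the narrow members 46.4% were found in both, against 40.2% of narrow single peaks, and of the wider ones 80.5% against 87.8%. Where each replicate held exactly 1 counterpart, their summits were as close in members (median 13 bp, 3243 peaks) as in single peaks (13 bp) and pairs (14 bp).

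Seen from the replicates, 1033 of the 1803 chains of replicate 1 (57.3%) and 771 of the 1320 of replicate 2 (58.4%) overlapped a merged chain. Chains of 1 replicate overlapped a chain of the other in 622 cases, which is 34.5% of the replicate 1 chains and 47.1% of the replicate 2 chains. In 78 of these the merged list had no chain of 3 or more. Chains matched by neither other list numbered 692 (38.4%) in replicate 1 and 471 (35.7%) in replicate 2.

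A few chains were listed in 1 library and not in the other. Replicate 2 listed no peak in 24 merged chains in which replicate 1 did, and every member was overlapped in replicate 1 in 18 of them. The strongest was on chromosome 6 at 5318176 to 5319520, with merged fold enrichments from 6.92 to 20.1 and a chain of 3 in replicate 1. The next, on chromosome 4 at 191029310 to 191030544, reached 15.6. The reverse held for 6 chains, led by one on chromosome 4 at 173106895 to 173107998 with fold enrichments from 7.45 to 14.2 and 3 peaks in replicate 2. Over the 24 chains without a replicate 2 peak the strongest member had a median fold enrichment of 6.39. For 2 chains, with no peak above 5.58, neither replicate list held any peak.

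Values just inside and just outside the linking limit were close. The 3 longest links inside chains measured 998, 998 and 997 bp and joined peaks with fold enrichments from 5.61 to 21.7. The 3 shortest links that failed, all of 1001 bp, would have joined 3 or 4 peaks, with fold enrichments from 6.44 to 11.6 on either side. There were 95 links of 951 to 1000 bp in chains and 92 of 1001 to 1050 bp that would have made or extended one, and the median fold enrichment of the peaks they touch was 6.72 and 6.63.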

How the data were processed

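MH-seq of 2 B73 leaf libraries was analysed from 3 narrowPeak lists. The submitters' processing notes name MACS2, Bowtie2, SAMtools 1.5, fastp 0.20.0, deepTools and ChIPseeker, and build B73 RefGen_v4. Neither settings nor the way the libraries were merged are stated there. The authors deposited a fold enrichment (a ratio to background) and a −log10 q for each peak, which were used as they stand and only to describe, rank or filter peaks. Depth is unknown.

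Summits were sorted within each chromosome and chained at 1000 bp or less, separately in each list. Overlaps needed 1 bp. A chain was placed by the middle of its span, and a chromosome's length was the last peak end in any list. Intervals are Wilson 95%. Named chains were the 10 with the most merged peaks (ties by longer span), the 3 with the highest median fold enrichment and the 3 with the highest covered share. Members, classes and lists were chosen with earlier results of these data known, and no test was run. The chaining code was checked on simulated peaks planted by the same rule: of 1057 planted chains 1057 were found among 14614 peaks. This checks the code alone and says nothing about the chains in the data. Python 3.11.15, numpy 2.4.6, pandas 2.3.3, scipy 1.17.1 and matplotlib 3.10.9 were used. Alternatives covered the linking distance, peak filters, joining, the list used and the definition of recurrence. Genes were not assigned, since the gene table given is of Zm-B73-REFERENCE-NAM-5.0.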

Additional observations from a re-analysis of the deposited data

How the results depend on the processing

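The number of chains, 1564 with 4914 peaks as reported, was 550 (1719 peaks) with links of up to 500 bp, 2736 (8674) with 2000 bp, 781 (2410) after joining peaks within 100 bp and 572 (1764) among merged peaks found in both replicates. There were 197 chains of 4 or more. The other alternatives, with either replicate left out among them (1320 to 1803 chains, 4176 to 5670 peaks), stayed within 1.5 times. The median span of 1190 bp was 816, 1669, 1395 and 1259 bp under those 4 settings in the same order, 1307 bp with distances taken from edge to edge, 1255 bp after joining edges under 38 bp apart (a setting added after the data were seen) and 1152 to 1199 bp with either replicate left out. The covered share of 53.3% was 69.2%, 39.5%, 45.6% and 56.0% under the same 4 settings, 49.1% from edge to edge, 49.95% after joining under 38 bp, 53.8% at −log10 q of at least 10 and 47.7 to 47.8% with either replicate left out.

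The share of chains at the chromosome ends, 54.0%, was 53.3%, 55.3%, 56.9% and 52.4% under the 4 settings, 54.9% from edge to edge, 55.2 to 55.8% with either replicate left out and 30.6% for the outer 10% at each end. The difference in median fold enrichment, -0.87, was below 0 in all of them, at -1.01, -0.95, -0.94 and -1.002, -0.89 from edge to edge, -0.90 at −log10 q of at least 10 and -0.87 to -0.83 with either replicate left out. Recurrence in both replicates, 34.8%, was 19.1% with links of 500 bp, 42.8% with 2000 bp, 26.4% at −log10 q of at least 10, 83.6% among merged peaks found in both replicates (a filter that selects for it), 18.4% when each member needed summits within 50 bp in both, and 39.1% after joining edges under 38 bp apart. Of the values under alternatives 46 moved by more than the replicate SD, the Wilson interval or 1.5 times and 20 did not, and no difference changed sign. This tally is no measure of robustness. For the covered share the replicate SD was only 0.03 percentage points (n = 2), so every alternative counted as moved. The 46 also include the outer 10% and the chains of 4 or more, which are different quantities. No paired analysis was possible because both replicates belong to the same group and nothing is compared between groups. With depth unknown, a peak missing from a list near the limit of 5 is not shown to be absent.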

Other observations

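Stronger merged peaks that replicate 2 lacked were not spread evenly. This was noticed while chains without any replicate 2 peak were examined, and the limits were chosen after the data were seen. Of 29190 merged peaks with a fold enrichment of at least 8, replicate 2 had no counterpart for 397 (1.36%) and replicate 1 for 64 (0.219%). Of the 397, 101 (25.4%) lay in 19 windows of 1 Mb with at least 4 each, on chromosomes 2, 4, 5 and 6. No window reached 4 for replicate 1, where the most was 3. On chromosome 6 at 5000001 to 6000000, 5 of 6 such peaks were missing from replicate 2 (83.3%), 2 of them chain members. At 19000001 to 20000000 it was 7 of 13, and at 21000001 to 22000000 it was 6 of 12. On chromosome 4 at 191000001 to 192000000 it was 10 of 27, and on chromosome 2 at 230000001 to 231000000 it was 7 of 18. Both the 6-peak chain on chromosome 2 and the strongest chains absent from replicate 2, on chromosomes 4 and 6, fell in these windows. Members of these chains were among the missing peaks that selected the windows, so their place there is partly set by the selection. Chains in the 19 windows recurred in both replicates in 10 of 29 cases (34.5%, Wilson 95% interval 19.9 to 52.7%), against 34.8% of all others. They recurred in replicate 1 alone in 24.1% against 31.4%, and in replicate 2 alone in 27.6% against 14.3%. No replicate 2 peak was listed in 4 of the 29, against 22 of the 1535 others, a difference that the selection of windows favours.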
